A study of Rattus norvegicus with 6 samples.

Results

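Clathrin-mediated endocytosis and its first destination, the early endosome, were examined through 10 genes: Cltc, Clta and Cltb, which encode the clathrin chains; Ap2a1, Ap2b1 and Ap2m1, which encode subunits of the AP-2 adaptor; Eps15, Eps15l1 and Epn1, which encode accessory proteins of the coat; and Eea1, which encodes an early endosome tether. The genes were chosen by name, with earlier results of these data known, and the study also lists Eea1 and Eps15l1 as splicing targets. All 10 symbols were found among the 20609 genes of the count table, each on 1 row, and all 10 had enough counts to be tested. The study transfected PC12, a line of adrenal medulla tumor (pheochromocytoma) cells from rat, with a control plasmid or with a plasmid for EGFP-tagged PCBP-1, an RNA binding protein that recognizes C-rich sequences. The study's methods describe the transfection of the PCBP-1 plasmid and mention no control plasmid. Its abstract, by contrast, calls the overexpression constitutive and its introduction calls it stable. Poly-A RNA of 3 control and 3 PCBP1-OE libraries was sequenced, and reads were counted per gene.

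The sources used here give neither the content of the control plasmid nor the time of harvest for RNA-seq. Nothing in the labels says that the 3 libraries of a group came from separate cultures. The p-values below weigh the difference between groups against the spread between libraries within them, and that spread may be technical. Libraries held 19730209 to 22315623 counts. The number of genes called moved from 1193 with all libraries to 2860 without control replicate 3 and to 48 without control replicate 2, so calls are given with and without single libraries. No row of Pcbp1 itself was read, so its overexpression was not checked here. The study reports higher PCBP-1 RNA by RT-qPCR and higher protein by western blot. Of 9 chromaffin markers, 8 were in the table and only Th, Slc18a1 and Gata3 had enough counts to be tested; Chga, Chgb, Dbh and Ddc, which define chromaffin cells, had a count of 9 or less in every library. The summed level of the chromaffin list was 10.5 to 11.2 CPM (counts relative to the library total, scaled between libraries by the TMM method) in controls and 10.2 to 11.8 CPM in PCBP1-OE. Glial markers summed to 12.4 to 13.8 and 11.1 to 12.5 CPM, and leukocyte markers to 7.29 to 8.72 and 6.69 to 7.40 CPM. The fibroblast list, nearly all of it Pdgfra, summed to 224 to 229 CPM in controls and 199 to 211 CPM in PCBP1-OE, and its part in the results below was not tested.

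A clathrin coat is built from triskelia, each made of heavy chains (Cltc) with light chains (Clta or Cltb) bound to them. Clathrin does not bind the membrane itself. AP-2, a complex of an alpha (Ap2a1 or Ap2a2), a beta (Ap2b1), a mu (Ap2m1) and a sigma (Ap2s1) subunit, holds phosphoinositide lipids, cargo receptors and clathrin together at the plasma membrane, and Eps15, Eps15l1 and epsins such as Epn1 help the coat to start, to curve and to collect ubiquitinated cargo. Once the vesicle has lost its coat it fuses with early endosomes, where Eea1, recruited by Rab5 and phosphatidylinositol 3-phosphate, tethers the incoming membranes. In cells of neuroendocrine origin the same machinery also retrieves membrane after exocytosis.

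Because Eea1 is also one of the study's splicing targets, the primers with which its isoforms were told apart by RT-qPCR are shown, as listed in the supplementary primer table. The reverse primers share their last 11 bases (in capitals) and differ in the bases before them, 11 in the primer labelled AS (alternative splicing) and 10 in the primer labelled M. All are written from 5′ to 3′.
Primer labelled M/AS: gattcatcagcaactcct
Reverse primer labelled AS: gacttctttttCTCTGAAGAAC
Reverse primer labelled M: agatgaaaccCTCTGAAGAAC
A gene-level count adds up the reads of all isoforms of a gene, so the counts of Eea1 and Eps15l1 below say nothing about which junctions were used.

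Among the 10 genes, Eea1 rose in PCBP1-OE, and Epn1 and Ap2m1 fell, each by a small amount. Eea1 rose to 1.33 times its control level, Epn1 fell to 0.869 times and Ap2m1 to 0.890 times. The clathrin chains did not pass the test, and neither did Ap2a1, Ap2b1, Eps15 and Eps15l1. These 3 of 10 calls (edgeR's quasi-likelihood test, Benjamini-Hochberg adjusted p of 0.05 or less over all 12624 genes tested) stand beside a background of 9.45% of all genes tested. By direction, 1 gene was higher (background 4.45%) and 2 were lower (background 5%). The 10 genes were chosen with earlier results of these data known, so these shares are no test of the group. All 3 calls were lost when replicate 1 or replicate 2 of either group was left out. In such bulk libraries, fewer cells that express a gene and less of its RNA per cell cannot be told apart.

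**Figure D1:**
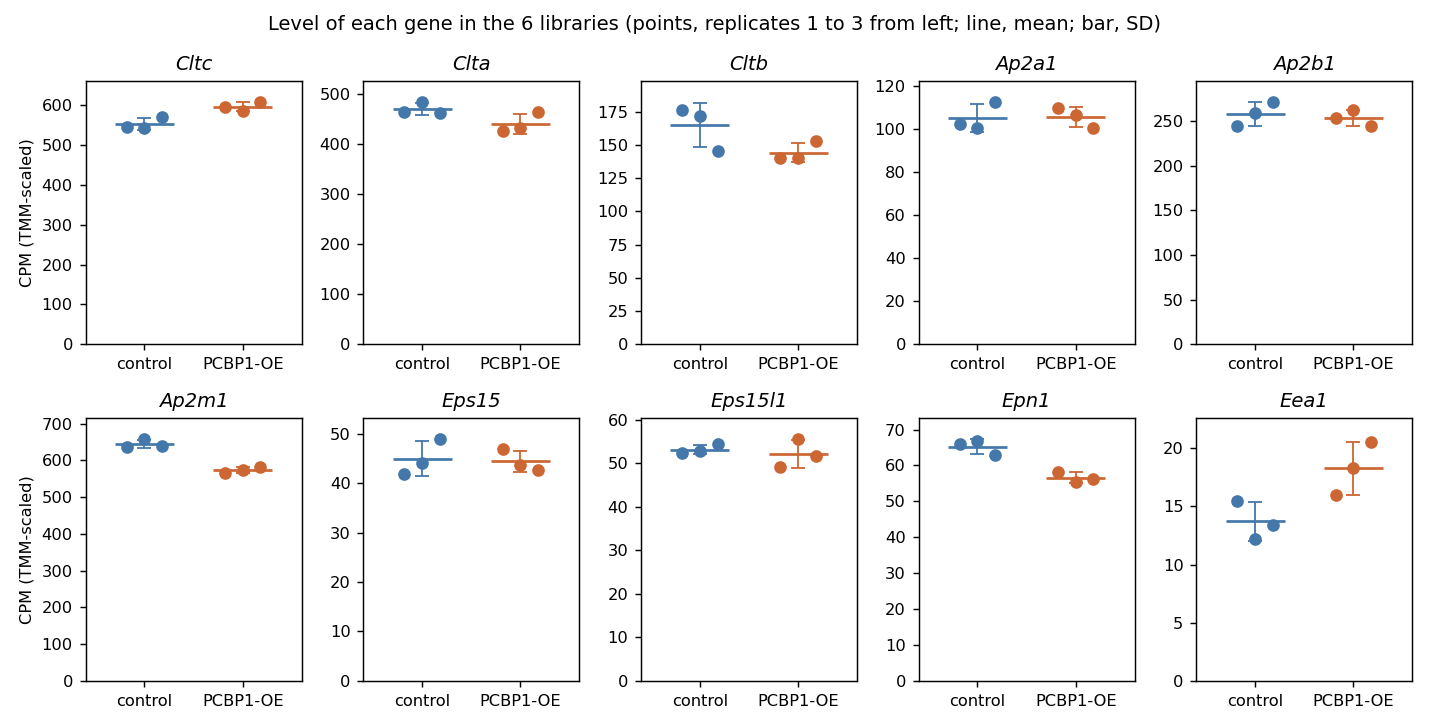
Level of each of the 10 genes in CPM after TMM scaling (y axis, from 0, a separate scale per gene) in the 3 control libraries (blue) and the 3 PCBP1-OE libraries (orange); points are replicates 1 to 3 from left to right, lines are means and bars are SD. The groups are apart in Cltc, Ap2m1, Epn1 and Eea1 and overlap in the other 6 genes.

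None of the 10 genes changed by 2-fold, the size the study required of a differentially expressed gene, with an adjusted p of 0.05 or less; this count of 0 was the same with DESeq2, limma-voom and edgeR's exact test. Over all genes tested, 0.19% passed both thresholds. At an unadjusted p below 0.05, with no requirement on fold, edgeR's quasi-likelihood test counted 5 of the 10, beside 28.4% of all genes tested. In 4 of the 10 genes the 3 libraries of a group all lay above those of the other, 2 with PCBP1-OE higher and 2 with PCBP1-OE lower. Over all genes tested this held for 30.6%, split into 14.1% higher and 16.5% lower. The median log2 fold change of the 10 genes was -0.026, with 3 above and 7 below 0, beside a median of 0.0029 over all genes tested. It was -0.063 without PCBP1-OE replicate 2 and 0.00018 without control replicate 3, so its sign depended on single libraries.

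Eea1 (ENSRNOG00000021681, chromosome 7), the tether of early endosomes, had counts of 304, 254 and 301 in control replicates 1 to 3 and 352, 369 and 401 in PCBP1-OE replicates 1 to 3. In CPM these were 15.5, 12.2 and 13.4 in the controls, against 16.0, 18.3 and 20.5 in PCBP1-OE. The groups did not overlap, but the highest control, replicate 1, was close to the lowest PCBP1-OE library, replicate 1. Means were 13.7 ± 1.68 and 18.2 ± 2.25 CPM (SD, n = 3 each). The log2 fold change was 0.41 (standard error, SE, 0.12, with a 95% interval of 0.16 to 0.66), and the adjusted p by edgeR's quasi-likelihood test, as for every single gene below, was 0.0437. Eea1 had the fewest counts of the 10 genes, and its spread between replicates was also the widest, with a coefficient of variation of 12.3% in both groups, where counting error alone gives 5.91% in controls and 5.17% in PCBP1-OE. The adjusted p passed the threshold in 1 of the 6 fits that each left out a library, the one without control replicate 3 (0.0323), and was highest without control replicate 2 (0.187). The log2 fold change stayed between 0.33 and 0.51 in those 6 fits.

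Epn1 (ENSRNOG00000015753, chromosome 1) encodes epsin 1, which bends the membrane and binds ubiquitinated cargo, AP-2 and clathrin. It was at 66.0, 66.7 and 62.8 CPM in the controls, against 58.3, 55.3 and 56.3 CPM in PCBP1-OE, from 1102 to 1408 counts per library. Every PCBP1-OE library was below every control, and control replicate 3 was the control nearest to them. Means were 65.2 ± 2.10 and 56.6 ± 1.53 CPM (SD, n = 3 each), which gave a log2 fold change of -0.20 (SE 0.05, 95% interval -0.31 to -0.094, edgeR adjusted p = 0.0288). The 2 groups had coefficients of variation of 3.22% and 2.71%, close to the 2.71% and 2.93% that counting error gives. Without control replicate 3 the adjusted p was 0.00593; it did not pass in the other 5 fits that left out a library, and was highest, at 0.128, without control replicate 2.

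Ap2m1 (ENSRNOG00000001709, chromosome 11) encodes the mu subunit of AP-2, which reads tyrosine-based sorting signals in cargo receptors. Its level was 636.7, 658.2 and 639.5 CPM in the controls, against 565.1, 573.8 and 583 CPM in PCBP1-OE, from 11420 to 14341 counts per library. The groups were well apart, with the highest PCBP1-OE library below the lowest control. Means were 645 ± 11.7 and 574 ± 8.98 CPM (SD, n = 3 each), which gave a log2 fold change of -0.17 (SE 0.04, 95% interval -0.26 to -0.080, edgeR adjusted p = 0.0274). Of the 6 fits without a library it passed in 2, without control replicate 3 (0.00791) and without PCBP1-OE replicate 3 (0.0443). Its highest value among them, 0.133, came without control replicate 2, although the log2 fold change there was still -0.15.

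The other subunits of AP-2 were read beside Ap2m1. Ap2s1 (ENSRNOG00000015865, chromosome 1), the small sigma subunit, was at 114.5, 113.7 and 102.3 CPM in the controls, against 92.8, 97.0 and 97.3 CPM in PCBP1-OE. It also fell, by 0.20 on the log2 scale (SE 0.05, edgeR adjusted p = 0.0313), and passed in 1 of 6 fits without a library, the one without control replicate 3 (0.0013). The large subunits did not pass. Ap2a1 (ENSRNOG00000026243, chromosome 1) was at 102.2, 100.2 and 112.4 CPM in the controls, against 109.5, 106.4 and 100.4 CPM in PCBP1-OE, groups that overlapped almost completely. Its log2 fold change was 0.0063, with a 95% interval of -0.11 to 0.12, and the sign turned when some libraries were left out.

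Ap2b1 (ENSRNOG00000061543, chromosome 10), the beta subunit that binds clathrin, was at 244.6, 259.1 and 271.3 CPM in the controls, against 253.6, 263.0 and 244.9 CPM in PCBP1-OE. The lowest and the highest of the 6 libraries were both controls. The log2 fold change was -0.025 with a 95% interval of -0.13 to 0.080, so that the interval runs from a fold of 0.913 to a fold of 1.06. For Ap2a2, the other alpha subunit, it was -0.0089 with an interval of -0.12 to 0.11. These intervals bound the change of the large subunits in these libraries and do not show that it was 0. As a value chosen after the levels had been seen, and not tested, the counts of Ap2m1 per count of Ap2b1 were 2.60, 2.54 and 2.36 in the controls, against 2.23, 2.18 and 2.38 in PCBP1-OE. Control replicate 3 and PCBP1-OE replicate 3 overlapped in this ratio, which needs no scaling between libraries.

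**Figure D2:**
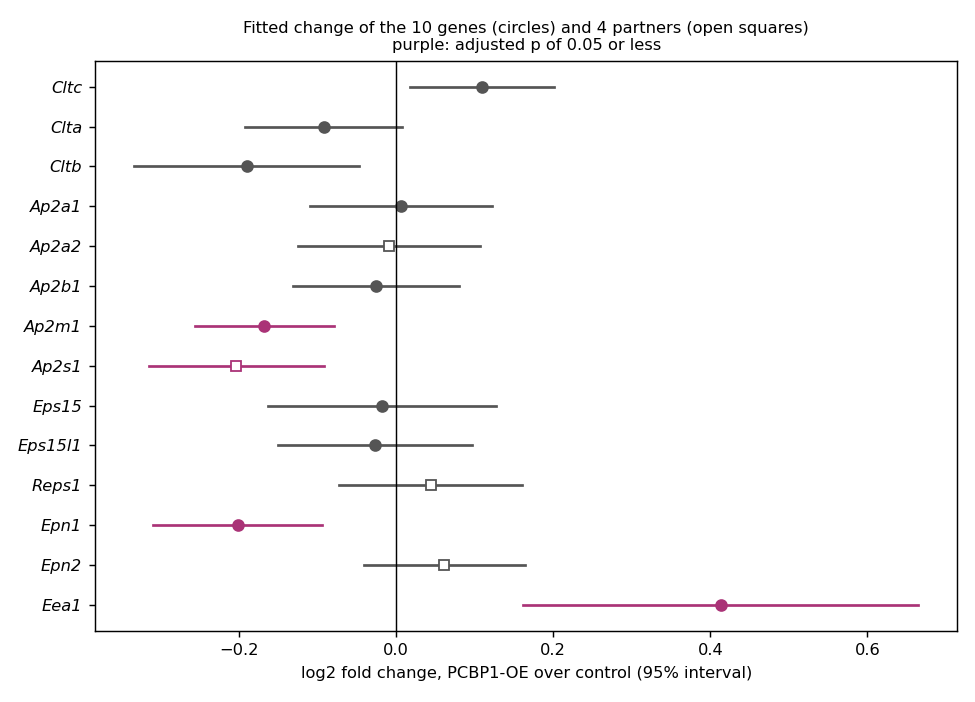
Fitted log2 fold change of PCBP1-OE over control (x axis) with its 95% interval for the 10 genes (filled circles) and for 4 partners or paralogs (open squares); purple marks an adjusted p of 0.05 or less. Eea1 is to the right of 0 at 0.41; Ap2m1, Ap2s1 and Epn1 are to the left at -0.17, -0.20 and -0.20, and all other genes shown did not pass.

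The clathrin chains had log2 fold changes of opposite sign, above 0 for the heavy and below 0 for both light chains, and none passed the test. Cltc (ENSRNOG00000004291, chromosome 10), the heavy chain, was at 544.6, 542.7 and 570.6 CPM in the controls, against 594.9, 585.7 and 608.1 CPM in PCBP1-OE. Every PCBP1-OE library was above every control, and the difference was small, with means of 553 ± 15.6 and 596 ± 11.3 CPM (SD, n = 3 each). The log2 fold change was 0.11 (SE 0.04, edgeR adjusted p = 0.111). Without control replicate 3 the adjusted p was 0.0328, and in the 5 other fits without a library it was above the threshold.

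Cltb (ENSRNOG00000017506, chromosome 17), the light chain B, was at 176.1, 172.0 and 145.7 CPM in the controls, against 140.1, 139.9 and 152.5 CPM in PCBP1-OE. Control replicate 3 lay apart from the other 2 controls and among the PCBP1-OE libraries. The log2 fold change was -0.19 (SE 0.07, edgeR adjusted p = 0.0819). It was -0.27 with an adjusted p of 0.0016 without control replicate 3, and -0.13 with an adjusted p of 0.339 without control replicate 1, so whether Cltb passed depended on single control libraries. Clta (ENSRNOG00000014635, chromosome 5), the light chain A, was at 462.9, 483.0 and 460.6 CPM in the controls, against 425.2, 431.3 and 463.0 CPM in PCBP1-OE, where replicate 3 was level with the controls. Its log2 fold change was -0.092 (95% interval -0.19 to 0.0077, edgeR adjusted p = 0.211).

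Ratios of counts within a library do not depend on how libraries are scaled, and 5 ratios between partners or paralogs were compared with two-sided exact permutation tests. With 3 libraries against 3, p cannot go below 0.1. The ratio depends on the lengths of both transcripts, so only its change between libraries is read. Counts of the heavy chain Cltc per count of both light chains were 0.852, 0.829 and 0.941 in the controls, against 1.05, 1.03 and 0.988 in PCBP1-OE. All 3 PCBP1-OE libraries were above all 3 controls, a difference of 0.23 on the log2 scale (exact permutation test, p = 0.1, adjusted over the 5 ratios 0.25). Between the light chains, counts of Cltb per count of Clta were 0.380, 0.356 and 0.316 in the controls, against 0.330, 0.324 and 0.329 in PCBP1-OE. The controls were spread more widely than the distance between the groups, which overlapped (exact permutation test, p = 0.4, adjusted 0.667).

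Epn1 was compared in the same way with its paralog Epn2 (ENSRNOG00000060550, chromosome 10), which did not pass the test (log2 fold change 0.061, SE 0.05, edgeR adjusted p = 0.430). Counts of Epn1 per count of Epn2 were 0.779, 0.785 and 0.716 in the controls, against 0.623, 0.646 and 0.630 in PCBP1-OE. The groups did not overlap, and the log2 ratio was lower in PCBP1-OE, with a difference of -0.26 (exact permutation test, p = 0.1, adjusted 0.25). For Ap2a1 per Ap2a2 the ratios were within 0.651 to 0.685 in all 6 libraries (exact permutation test, p = 0.8, adjusted 1.0). The third epsin, Epn3, had a count of at most 5 in any library and was not tested.

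**Figure D3:**
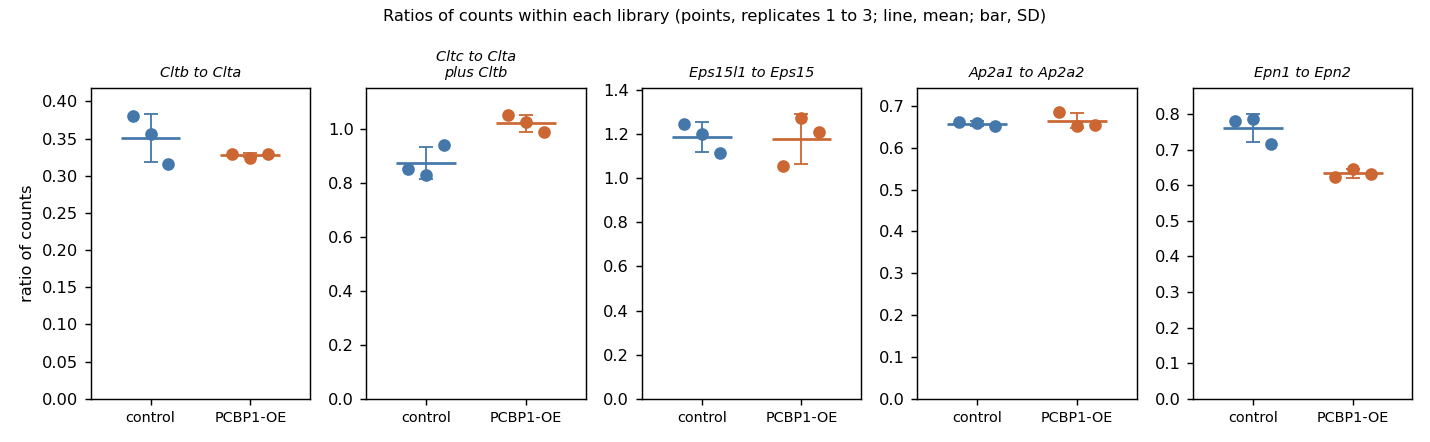
Ratios of raw counts between partners or paralogs (y axis, from 0, a separate scale per ratio) in control (blue) and PCBP1-OE (orange) libraries; points are replicates 1 to 3 from left to right, lines are means and bars are SD. The groups are apart for Cltc to both light chains and for Epn1 to Epn2, each with the smallest p possible, 0.1, and overlap for the other 3 ratios.

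Eps15 and Eps15l1 encode related scaffold proteins that bind AP-2 and ubiquitin at the rim of forming pits. Eps15 (ENSRNOG00000010299, chromosome 5) was at 41.9, 44.0 and 48.9 CPM in the controls, against 46.8, 43.7 and 42.7 CPM in PCBP1-OE. Eps15l1 (ENSRNOG00000013502, chromosome 16) was at 52.2, 52.8 and 54.3 CPM in the controls, against 49.2, 55.6 and 51.6 CPM in PCBP1-OE. The groups overlapped in both genes, and PCBP1-OE held both the lowest and the highest library of Eps15l1. The log2 fold changes were -0.018 for Eps15 (95% interval -0.16 to 0.13) and -0.027 for Eps15l1 (95% interval -0.15 to 0.096), with adjusted p-values of 0.890 and 0.798 by the same edgeR test.

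Counts of Eps15l1 per count of Eps15 were 1.24, 1.20 and 1.11 in the controls, against 1.05, 1.27 and 1.21 in PCBP1-OE (exact permutation test, p = 1.0, adjusted 1.0). PCBP1-OE libraries were both the lowest and the highest in this ratio. At the gene level the interval for Eps15l1 thus reached a fold of 0.901 at its lower and 1.07 at its upper end, while that for Eea1 ran from 1.12 to 1.59. Reps1, a further protein with the Eps15 homology domain, had a log2 fold change of 0.044 (edgeR adjusted p = 0.633).

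Which of the 10 genes were called depended on single libraries. With the libraries left out one at a time, 5 genes were called without control replicate 3 and 1 without the third PCBP1-OE library. None was called in the 4 other fits. The calls over all genes moved likewise: 2860 of 12815 tested without control replicate 3 and 697 of 12851 without the third PCBP1-OE library. They were 48 to 246 in the 4 other fits. In these 6 fits, 3 to 6 of the 10 genes had an unadjusted p below 0.05, beside 19.2% to 35.2% of all genes tested. Over all genes the calls with all libraries were split into 562 higher and 631 lower, or 655 and 427 under upper-quartile scaling. The 5 genes called without control replicate 3 were Eea1, Cltc, Epn1, Ap2m1 and Cltb. In Cltc, Cltb and Epn1, control replicate 3 was the control nearest to the PCBP1-OE libraries, and in Eea1 and Ap2m1 it was control replicate 1.

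**Figure D4:**
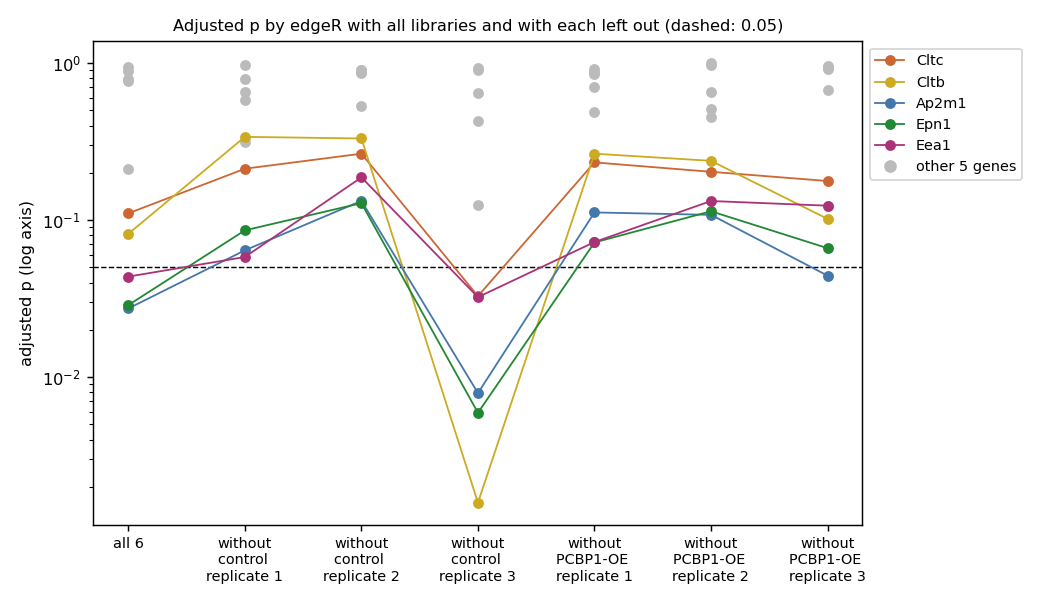
Adjusted p (y axis, log scale) by edgeR's quasi-likelihood test with all 6 libraries and with each library left out (x axis) for the 10 genes; 5 genes are coloured and the other 5 are grey, and the dashed line is at 0.05. Without control replicate 3 all 5 coloured genes fall under the line, and without control replicate 2 none does.

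The rest of the pathway was read from 5 lists, each described by its count and median. Of 27 other genes of coat assembly, 24 were tested and 2 passed, Necap1 higher and Ap2s1 lower, a share of 8.33% beside the background of 9.45%. Necap1, an AP-2 binding protein, was at 77.2, 76.6 and 83.4 CPM in the controls, against 90.2, 87.9 and 90.2 CPM in PCBP1-OE, which gave a log2 fold change of 0.18 (SE 0.05, edgeR adjusted p = 0.0389). The median log2 fold change of the list was 0.11, with 16 genes above and 8 below 0, beside 0.0029 for all genes tested, and the median was 0.17 without PCBP1-OE replicate 3 and 0.062 with no filter on low counts. Among 21 genes of scission and uncoating, which include the dynamins, the endophilins and the synaptojanins, 19 were tested and 1 passed, a share of 5.26%. The median of that list was -0.060 (-0.021 without control replicate 2, -0.091 without PCBP1-OE replicate 1). Its 1 call was the row with the symbol Hspa8 (chromosome 5), the name of the gene of the uncoating chaperone. That row had 146, 141 and 120 counts in the controls, against 78, 87 and 83 in PCBP1-OE.

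The row with the symbol Hspa8 had a log2 fold change of -0.69 (SE 0.17, edgeR adjusted p = 0.0256). The table holds another row, AABR07070032.1 (ENSRNOG00000034066, chromosome 8), described as the heat shock cognate 71 kDa protein, which is the protein Hspa8 encodes, with 19074 to 25643 counts per library. On that row, singled out after its values had been seen, the log2 fold change was -0.20 (SE 0.04, edgeR adjusted p = 0.0134). Per the methods, uniquely mapped reads were counted, so a read that fits several copies equally well would count for none of them. The chromosome 8 row holds far more counts than the row with the symbol Hspa8. The value of -0.69 may therefore not be the change of the chaperone's RNA. Both rows were lower in all 3 PCBP1-OE libraries than in any control. Of the 2 rows described as similar to heat shock protein 8, LOC680121 (chromosome 11) overlapped between groups and did not pass, with 587 to 736 counts per library and a log2 fold change of -0.12 (edgeR adjusted p = 0.270), and LOC688932 had too few counts to be tested.

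Beside Eea1, 36 of 37 listed genes of the early endosome were tested and 3 passed, 2 higher and 1 lower. This was a share of 8.33%, beside the background of 9.45%. Stam, a subunit of the ESCRT complex that sorts ubiquitinated cargo, rose by 0.19 on the log2 scale (SE 0.04, edgeR adjusted p = 0.0197), from 120.4 to 123.3 CPM in controls to 136 to 141.1 CPM in PCBP1-OE. Gapvd1, an exchange factor for Rab5, rose by 0.29 (SE 0.08, edgeR adjusted p = 0.0416), and Rab4b, a GTPase of the recycling route, fell by 0.29 (SE 0.06, edgeR adjusted p = 0.0179). Rab5a, Rab5b and Rab5c, the GTPases that recruit Eea1, named after their values had been seen, had log2 fold changes of 0.14, -0.11 and -0.070 and did not pass (edgeR adjusted p = 0.0922, 0.174 and 0.300). The median of the list was 0.058, with 23 genes above and 13 below 0, and it was 0.11 without control replicate 3.

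For the adaptors of other membranes, AP-1, AP-3 and the GGA proteins, 16 of 18 genes were tested and 2 passed, both lower, a share of 12.5%. Over all genes tested 9.45% passed in either direction and 5% passed as lower. The 2 adaptor genes were Ap1m1, the mu subunit of AP-1, with a log2 fold change of -0.17 (SE 0.04, edgeR adjusted p = 0.0288), and Ap1s1, its sigma subunit, with -0.19 (SE 0.05, edgeR adjusted p = 0.0372). The median of the list was -0.015, and it was 0.0053 under upper-quartile scaling and -0.039 without PCBP1-OE replicate 1. Of 12 receptors that clathrin coats take up, 10 were tested and 1 passed, a share of 10%. The median of the receptor list was 0.041 (0.018 without PCBP1-OE replicate 1). The calls of Ap2s1, Necap1, Hspa8, Rab4b, Stam, Gapvd1, Ap1m1 and Ap1s1 did not pass when replicate 1 or replicate 2 of either group was left out, with edgeR adjusted p-values of up to 0.208.

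**Figure D5:**
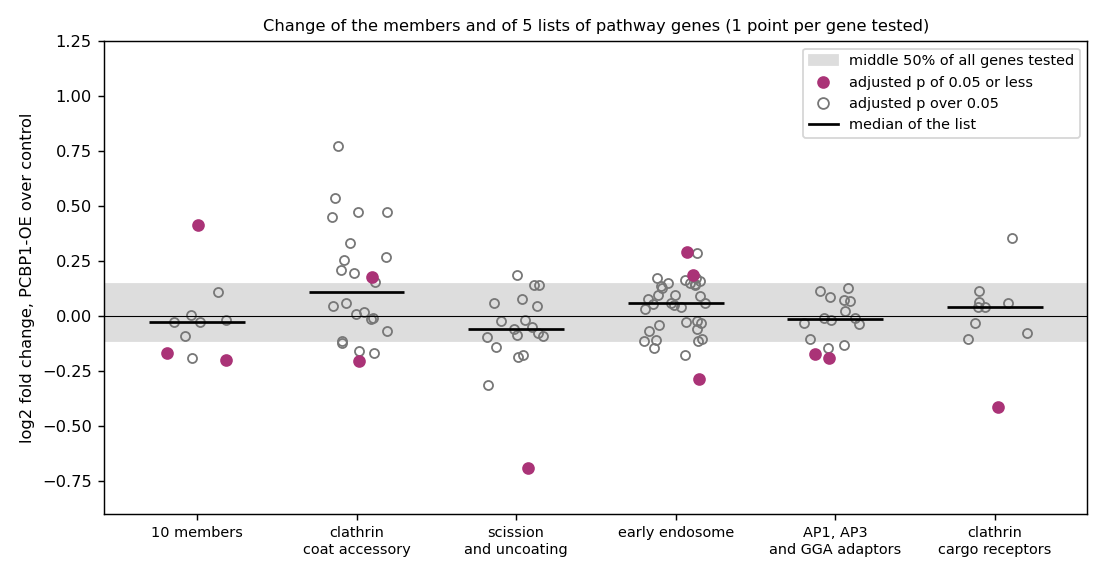
Log2 fold change of PCBP1-OE over control (y axis) for the 10 genes and for each tested gene of 5 pathway lists (x axis); filled purple points have an adjusted p of 0.05 or less, black lines are medians and the grey band is the middle 50% of all genes tested (-0.11 to 0.15). Eea1 at 0.41 is the highest of the 10 genes, and the list medians lie between -0.060 and 0.11.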

How the data were processed

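Poly-A RNA-seq of 3 control and 3 PCBP1-OE libraries of PC12 cells was used, and each column was assigned by its title. The deposited values are raw read counts per gene. Per the methods, FASTX-Toolkit was used for trimming and TopHat2 for alignment to Rnor_6.0, and uniquely mapped reads were counted. The sources used here name neither counting tool nor strand setting, so overlapping genes are uncertain. The submitters' processing notes name GRCh38, while the gene IDs are of rat, and labels and methods name different stranded kits.

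Counts were tested with edgeR 4.0.16 (R 4.3.3; glmQLFit, glmQLFTest), after filterByExpr (minimum count 10, minimum total 15) and TMM scaling. The filter left out 7985 genes. A call has a Benjamini-Hochberg adjusted p of 0.05 or less; intervals are 95%. CPM are TMM-scaled. Ratios used raw counts and scipy 1.17.1. As alternatives, libraries were left out one by one, the replicate number was a block, filters were none or at least 1 CPM in 3 libraries, scaling was upper-quartile or RLE, and the tests were DESeq2 1.42.0, limma-voom 3.58.1 and edgeR's exact test. The pipeline was also run on simulated counts with known changes. That run checked the code and does not bear on how far the calls above hold.

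Named were the 10 genes, Ap2a2, Ap2s1, Epn2, Epn3, Reps1 and the up to 4 largest called changes in each direction per list. Members and lists were chosen with earlier results of these data known. Amph, Snx3, Ap1g1, Aif1, Col1a2 and Lum were not matched and are not analysed here, and a few other list genes are not reported here by name. Splicing, RT-qPCR and CLIP data were not used here.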

Additional observations from a re-analysis of the deposited data

How the results depend on the processing

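Eea1, Epn1 and Ap2m1 kept their direction in all 14 alternatives and passed in 8, 8 and 9 of them; RLE and upper-quartile scaling, both other filters, DESeq2, limma-voom and edgeR's exact test each called 3 or 4 of the 10 genes. With no filter on low counts, 2090 of 20609 genes were called over all. In that fit 5 of 27 were called in coat assembly, 3 of 20 in scission and uncoating and 6 of 36 in the early endosome. Cltb passed there (edgeR's quasi-likelihood test, adjusted p = 0.00898). The exact test called 1594 of 12624 genes over all, 4 of 24 in coat assembly and 3 of 19 in scission and uncoating. Same-numbered libraries did not deviate together (r = -0.078, -0.051 and -0.043), and the labels do not pair them. With the replicate number as a block, 16 genes were called over all and 0 among the 10 genes and in every list (at an unadjusted p below 0.05, 4 of the 10, beside 21.6% of all genes tested), so Eea1, Epn1 and Ap2m1 were at adjusted p = 0.154, 0.129 and 0.151.

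With 1 library left out, calls ranged from 48 to 2860 over all genes, 0 to 5 among the 10 genes, 0 to 11 in coat assembly, 0 to 4 in scission and uncoating, 0 to 10 in the early endosome, 0 to 3 in AP-1, AP-3 and GGA and 1 to 1 in cargo receptors, the highest each time without control replicate 3 where they differ. Log2 fold changes near 0 changed sign: Eps15 ranged from -0.059 to 0.047 (0.0020 under upper-quartile scaling), with 0.016 without PCBP1-OE replicate 3, Eps15l1 from -0.075 to 0.014, and Ap2b1 from -0.057 to 0.011, with 0.0067 without PCBP1-OE replicate 3. Ap2a1 ranged from -0.022 to 0.059, with -0.0061 and -0.020 without control replicates 1 and 2, and Ap2a2 from -0.037 to 0.050 (0.011 under upper-quartile scaling), with 0.023 without PCBP1-OE replicate 3. The differences of the log2 ratios ranged from 0.19 to 0.28 for Cltc to both light chains, -0.31 to -0.24 for Epn1 to Epn2, -0.17 to -0.034 for Cltb to Clta, -0.070 to 0.067 for Eps15l1 to Eps15 and -0.0082 to 0.026 for Ap2a1 to Ap2a2. Over all alternatives, median log2 fold changes ranged from -0.063 to 0.00018 for the 10 genes, 0.062 to 0.17 in coat assembly, -0.091 to -0.021 in scission and uncoating, 0.045 to 0.11 in the early endosome, -0.039 to 0.0053 in AP-1, AP-3 and GGA and 0.018 to 0.061 in cargo receptors. Eea1 had the fewest counts of the 10 genes, 254 to 401 per library, and its spread between replicates was wider than counting error alone gives. No group had the 4 libraries that a search for outlying samples needs.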

Other observations

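The spread between replicates relative to counting error differed among the 10 genes. In the controls, the coefficient of variation was 6.21% for Ap2a1, where counting error alone gives 2.13%, and 5.17% for Ap2b1, where it gives 1.36%. For Eps15l1 it was 2.08% in the controls, below that of counting error, and 6.17% in PCBP1-OE. Picalm, a clathrin assembly protein named after its values were seen, was at 82.9, 78.0 and 110.9 CPM in the controls, against 120.6, 118.3 and 103.2 CPM in PCBP1-OE, with the groups overlapping through control replicate 3 (log2 fold change 0.33, adjusted p = 0.0619, edgeR's quasi-likelihood test).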
